A study of Homo sapiens with 5 samples.

Results

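Nuclear genes whose symbols start with NDUF were followed in HEK293A cells, a flat, adherent form of the embryonic kidney line HEK293, after knockdown of IRE1α, a stress sensor of the endoplasmic reticulum. Members were taken by symbol alone from the deposited abundance table, which gave 43 genes of 10504. They comprise 35 subunits of respiratory complex I, 7 assembly factors (NDUFAF1 to NDUFAF7) and NDUFA4. The last was named as a complex I subunit but is now assigned to complex IV, and it was kept apart. The subunit genes NDUFA9 and NDUFA13 were not analysed here.

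The cells received an siRNA against IRE1α (siIRE1a, 2 samples) or a control siRNA (siCon, 2 samples). All cells were serum-starved before fetal bovine serum was added to induce protein synthesis, so every value is from serum-treated cells and no group without serum was measured. A further sample is the multiplexed Ribo-seq library. The sample descriptions name RNA-seq for the siCon samples and Ribo-seq for the siIRE1a samples, whereas the tables hold both assays for both groups. Groups were therefore taken from the siRNA and assays from the column headers, and if the columns do not hold what their headers say, the changes and TE values below mean something else. RNA abundance and ribosome footprint abundance (Ribo-seq, from the mRNA fragments that ribosomes protect from nuclease) were deposited as 1 value per group, assay and gene. The siRNA sequence, the siRNA dose and the length of serum treatment are not given in the sources used here. The labels do not say that replicates came from separate cultures, so the authors' p-values may measure technical spread only.

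The siIRE1a libraries had 49112701 and 34172898 sequencing clusters and the siCon libraries 28769136 and 31876615, but given that conflict their assay is uncertain, and the reads behind each value are unknown. ERN1, which encodes IRE1α, had RNA of 0.0736 in siIRE1a and 0.121 in siCon cells (log2 -0.72). Its footprints were 0.275 in siIRE1a and 0.402 in siCon cells. These RNA values are low, as the median of all genes was 0.396 in siIRE1a and 0.412 in siCon cells. RNA was at least 1.5-fold lower for 6.70% of all genes. Of 8 genes taken as typical of HEK293 cells, 6 were measured, the highest being VIM with footprints of 69.5 in siIRE1a and 83.8 in siCon cells. Of 12 markers of blood, liver, islet, glial, endothelial and muscle cells only ACTA1 was measured, with footprints of 11.8 in siIRE1a and 14.2 in siCon cells, and its coding sequence closely resembles that of the cytoplasmic actins.

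Complex I oxidises NADH in the mitochondrial matrix, passes the electrons through a flavin and a chain of iron-sulfur clusters to ubiquinone, and pumps protons across the inner membrane. Its matrix arm has an NADH-oxidising N module and a ubiquinone-reducing Q module, and its membrane arm has a proximal and a distal part. Core subunits carry out the catalysis and are encoded partly in mitochondrial DNA, accessory subunits surround them, and assembly factors help to build the complex without staying in it.

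NDUFA7 stood apart from the other members. This accessory subunit of the matrix arm had footprints of 7.40 in siIRE1a and 21.3 in siCon cells, which is 2.88-fold lower (log2 -1.53) and the lowest footprint change of all 10504 genes. Its RNA was 1.14 in siIRE1a and 2.21 in siCon cells, which is 1.93-fold lower (log2 -0.95). TE (translational efficiency, footprint over RNA abundance of the same group) of NDUFA7 was 6.46 in siIRE1a and 9.62 in siCon cells. In the authors' deposited table its TE log2 value of -0.60 missed the threshold (adjusted p = 0.104). Among the 43 members ordered by footprints NDUFA7 was number 33 in siIRE1a cells and number 19 in siCon cells. The other 42 members had footprint changes between -0.39 and 0.06.

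The sequences below are shown because an earlier scan of these same footprint values picked out 3′ UTRs (untranslated regions) with GGACCTA or GACCTAA, and NDUFA7 carries the second. These overlapping 7-mers were searched on the transcript strand of 1 GENCODE release 29 transcript per gene. Among members, NDUFA7 and NDUFS1 had a match in the 3′ UTR, which is in capitals. CHCHD4, an import factor described further down, is included because its match joins both 7-mers. The windows lie in GRCh38 on the minus strand, at chr19:8311425-8311454 for NDUFA7, chr2:206115355-206115384 for NDUFS1 and chr3:14112144-14112173 for CHCHD4.
NDUFA7: agggagaatgtGACCTAAtttatgacaaat
NDUFS1: agagtccttgtGACCTAAtcatctcccaga
CHCHD4: ttgagaggtggGGACCTAAttattaccaga

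The NDUFA7 match covers bases 62 to 68 of a 3′ UTR of 221 bases. In NDUFS1 it covers bases 8812 to 8818 of 9368, and its footprints were 6.38 in siIRE1a and 7.13 in siCon cells (log2 -0.16). A match outside the 3′ UTR was found in NDUFB11, in the 5′ UTR. Of 10230 genes whose 3′ UTR had 50 bases or more, 928 (9.07%) held either 7-mer, with a median footprint change of -0.14, against -0.08 in genes without. Among members the count was 2 of 42 (4.76%). The 7-mers were chosen on these footprint values, so these numbers describe them and test nothing, and their part in the NDUFA7 values was not tested. NDUFA7 exons also overlap those of the annotated gene AC010323.1 on the same strand.

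Footprints of the members together were slightly lower in siIRE1a cells. Of the 43 members, 39 (90.7%) had a change below 0, against 67.9% of all genes, and their median change was -0.14, against -0.08 for all genes. This direction depended on scaling, since 31 of 35 subunits were below 0 as deposited and 18 after quantile normalization. Footprint changes also moved with abundance: 36 members were among the 20% of genes with the highest footprints, where all genes had a median of -0.13 and these members -0.12. The share at least 20% lower was 9.30% of members (NDUFA7, NDUFS7, NDUFB7 and NDUFB4), close to the 7.98% of all genes, and 0 members were at least 25% higher, against 4.33%. NDUFA7 was also the single member at least 1.5-fold lower, where 0.904% of all genes lay. With 1 value per group there is no spread between replicates, so RNA and footprint changes carry no test.

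**Figure D1:**
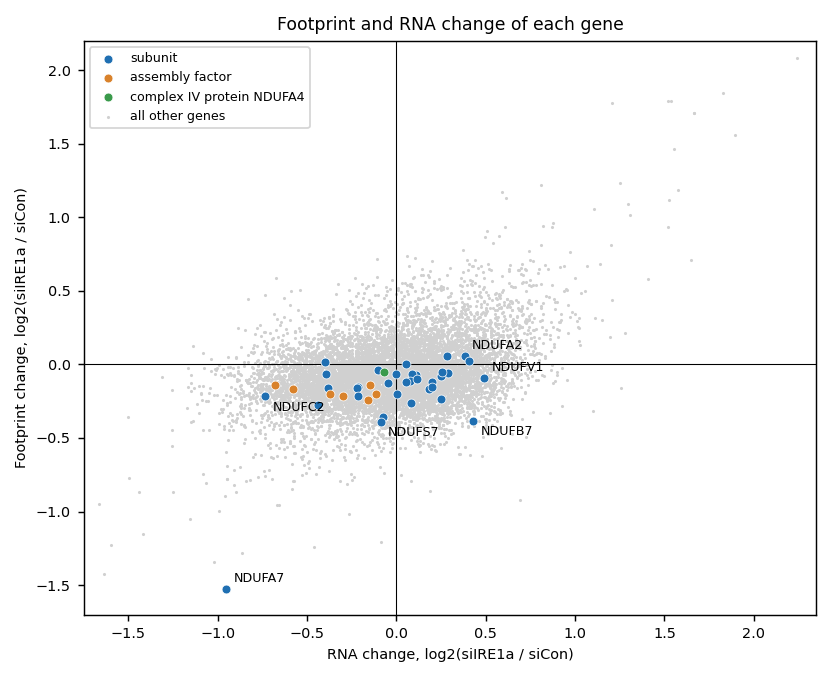
Footprint change against RNA change, both as log2 of the siIRE1a over the siCon value, for subunits, assembly factors, NDUFA4 and all other genes. NDUFA7 lies at -0.95 in RNA and -1.53 in footprints, and the other members shown lie between -0.39 and 0.06 in footprints.

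The N module takes electrons from NADH. Its core subunit NDUFV1, which binds the flavin FMN, had footprints of 9.56 in siIRE1a and 10.2 in siCon cells and RNA of 2.95 in siIRE1a and 2.10 in siCon cells (log2 0.49). That RNA change was the highest of the members as deposited, but with the GC trend removed it was 0.25, below NDUFB2 at 0.39. NDUFV2, a core iron-sulfur subunit, had footprints of 12.7 in siIRE1a and 14.8 in siCon cells and RNA of 1.77 in siIRE1a and 2.05 in siCon cells. The core subunit NDUFS1, which carries several iron-sulfur clusters, had RNA of 0.332 in siIRE1a and 0.432 in siCon cells. All 3 had footprints that were lower in siIRE1a cells, although the NDUFV1 change turned to 0.02 with quantile normalization, while RNA was higher for NDUFV1 and lower for NDUFV2 and NDUFS1.

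Among accessory N module genes, NDUFS6 had footprints of 42.1 in siIRE1a and 49.5 in siCon cells and RNA of 5.03 in siIRE1a and 4.23 in siCon cells. NDUFA2, which has a thioredoxin-like fold, had the highest footprint change of all members (log2 0.06), with 41.4 in siIRE1a and 39.8 in siCon cells. NDUFA12, a paralog of the assembly factor NDUFAF2, had RNA of 2.43 in siIRE1a and 3.19 in siCon cells and footprints of 18.6 in siIRE1a and 19.5 in siCon cells. Of the 10 genes of the N module 9 had footprint changes below 0, or 8 after median centring and 6 after quantile normalization, against 67.9% of all genes as deposited, with NDUFA6 at -0.11, NDUFS4 at -0.12 and NDUFV3 at -0.28.

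The Q module, where electrons reach ubiquinone, had the lowest median footprint change of the 4 parts of the complex, at -0.26 over 5 genes, against -0.14 for the N module and -0.12 for both parts of the membrane arm. No test stands behind that order. NDUFS7, a core iron-sulfur subunit at the ubiquinone site, had footprints of 8.47 in siIRE1a and 11.1 in siCon cells (log2 -0.39). NDUFS8, another core iron-sulfur subunit, had footprints of 16.6 in siIRE1a and 19.96 in siCon cells. For NDUFS3, also a core subunit, the groups lay closer together, with footprints of 18.1 in siIRE1a and 18.6 in siCon cells.

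In NDUFS7 and NDUFS8 RNA differed less between the groups than footprints as deposited. NDUFS7 RNA was 0.765 in siIRE1a and 0.813 in siCon cells. NDUFS8 RNA was 5.16 in siIRE1a and 4.88 in siCon cells, and NDUFS3 RNA was 1.93 in siIRE1a and 2.07 in siCon cells. The accessory gene NDUFA5 had footprints of 12.9 in siIRE1a and 12.8 in siCon cells and RNA of 1.22 in siIRE1a and 1.61 in siCon cells, though its RNA change turned to 0.047 with the GC trend described below removed.

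In the proximal membrane arm footprints of all 8 measured genes were lower in siIRE1a cells, by log2 values between -0.22 and -0.06, but 4 of 8 were below 0 after median centring or quantile normalization. As deposited, 67.9% of all genes were below 0. NDUFC2 had the lowest RNA change among subunits after NDUFA7 (log2 -0.73), with 0.766 in siIRE1a and 1.27 in siCon cells, while its footprints were 31.7 in siIRE1a and 36.8 in siCon cells. Its exons overlap those of the readthrough gene NDUFC2-KCTD14. NDUFA11 had RNA of 4.09 in siIRE1a and 3.35 in siCon cells (log2 0.29, or 0.05 with the GC trend removed).

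In the distal membrane arm, 9 of 11 genes had footprint changes below 0, or 7 after median centring and 5 after quantile normalization, where 67.9% of all genes were below 0. RNA changes were above 0 for 8 of the 11, against 48.8% of all genes. NDUFB7, an accessory subunit on the intermembrane-space side, differed in opposite directions, with footprints of 11.1 in siIRE1a and 14.5 in siCon cells and RNA of 2.07 in siIRE1a and 1.53 in siCon cells. NDUFB4 had footprints of 44.9 in siIRE1a and 57.5 in siCon cells (log2 -0.36) and RNA of 6.27 in siIRE1a and 6.60 in siCon cells. The genes of this arm above 0 in footprints were NDUFB2, with 22.4 in siIRE1a and 21.6 in siCon cells, and NDUFB8, with 2.47 in siIRE1a and 2.43 in siCon cells. In both the groups lay close together. NDUFB8 RNA was 0.437 in siIRE1a and 0.330 in siCon cells (log2 0.40). NDUFAB1, the mitochondrial acyl carrier protein that sits in both arms, had footprints of 19.3 in siIRE1a and 20.2 in siCon cells, and the complex IV protein NDUFA4 had footprints of 98.0 in siIRE1a and 102 in siCon cells.

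The 7 assembly factors with NDUFAF symbols were lower in both assays, in footprints also after median centring, quantile normalization and removal of the GC trend. All 7 had RNA and footprint changes below 0, where 51.2% of all genes had an RNA change and 67.9% a footprint change below 0. NDUFAF7 RNA, however, turned to 0.07 once the trend of RNA changes with GC content was removed. Their median RNA change was -0.30, against 0.06 for the 35 subunits and -0.01 for all genes. Of the subunits, 14 were below 0 in RNA and 21 above. Transcripts of the assembly factors had a median GC content of 44.3%, against 48.5% for subunits, and with the GC trend removed the median RNA changes were -0.13 for assembly factors and 0.04 for subunits.

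NDUFAF6, which takes part in early assembly around the mitochondrially encoded subunit ND1, had RNA of 0.196 in siIRE1a and 0.315 in siCon cells (log2 -0.68) and footprints of 0.679 in siIRE1a and 0.749 in siCon cells. NDUFAF4, which acts with NDUFAF3 on the Q module, had RNA of 0.417 in siIRE1a and 0.623 in siCon cells (log2 -0.58, or -0.13 with the GC trend removed and -0.20 with a pseudocount of 1) and footprints of 8.44 in siIRE1a and 9.46 in siCon cells. NDUFAF3 had RNA of 0.377 in siIRE1a and 0.417 in siCon cells and footprints of 10.8 in siIRE1a and 11.9 in siCon cells. In all 3 both values were lower in siIRE1a cells.

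NDUFAF5, which hydroxylates an arginine of NDUFS7, had RNA of 0.143 in siIRE1a and 0.184 in siCon cells and footprints of 1.36 in siIRE1a and 1.56 in siCon cells. NDUFAF7, an arginine methyltransferase of the mitochondrial matrix, had RNA of 0.327 in siIRE1a and 0.355 in siCon cells and footprints of 1.11 in siIRE1a and 1.27 in siCon cells. NDUFAF1, of the membrane-arm assembly complex, had RNA of 0.237 in siIRE1a and 0.292 in siCon cells and footprints of 1.66 in siIRE1a and 1.93 in siCon cells. In all 3 both values were lower in siIRE1a cells, but for NDUFAF7 RNA with the GC trend removed. NDUFAF2, which acts late, when the N module is added, had RNA of 0.519 in siIRE1a and 0.579 in siCon cells and footprints of 5.11 in siIRE1a and 6.05 in siCon cells. No NDUFAF gene reached an RNA value of 1 in either group, and a pseudocount of 1 brought their median RNA change to -0.056.

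The frequency of larger RNA changes can be set beside that in all genes. RNA was at least 20% lower for 9 members (20.9%), against 21.6% of all genes, and at least 25% higher for 4 members (9.30%), against 16.0%. It was at least 1.5-fold lower for 3 members (6.98%), NDUFA7, NDUFC2 and NDUFAF6, near the 6.70% of all genes. With a pseudocount of 1 the RNA change was -0.58 for NDUFA7, -0.36 for NDUFC2 and -0.14 for NDUFAF6. RNA differed by more than footprints in 31 of 43 members (72.1%) and in 67.9% of all genes.

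**Figure D2:**
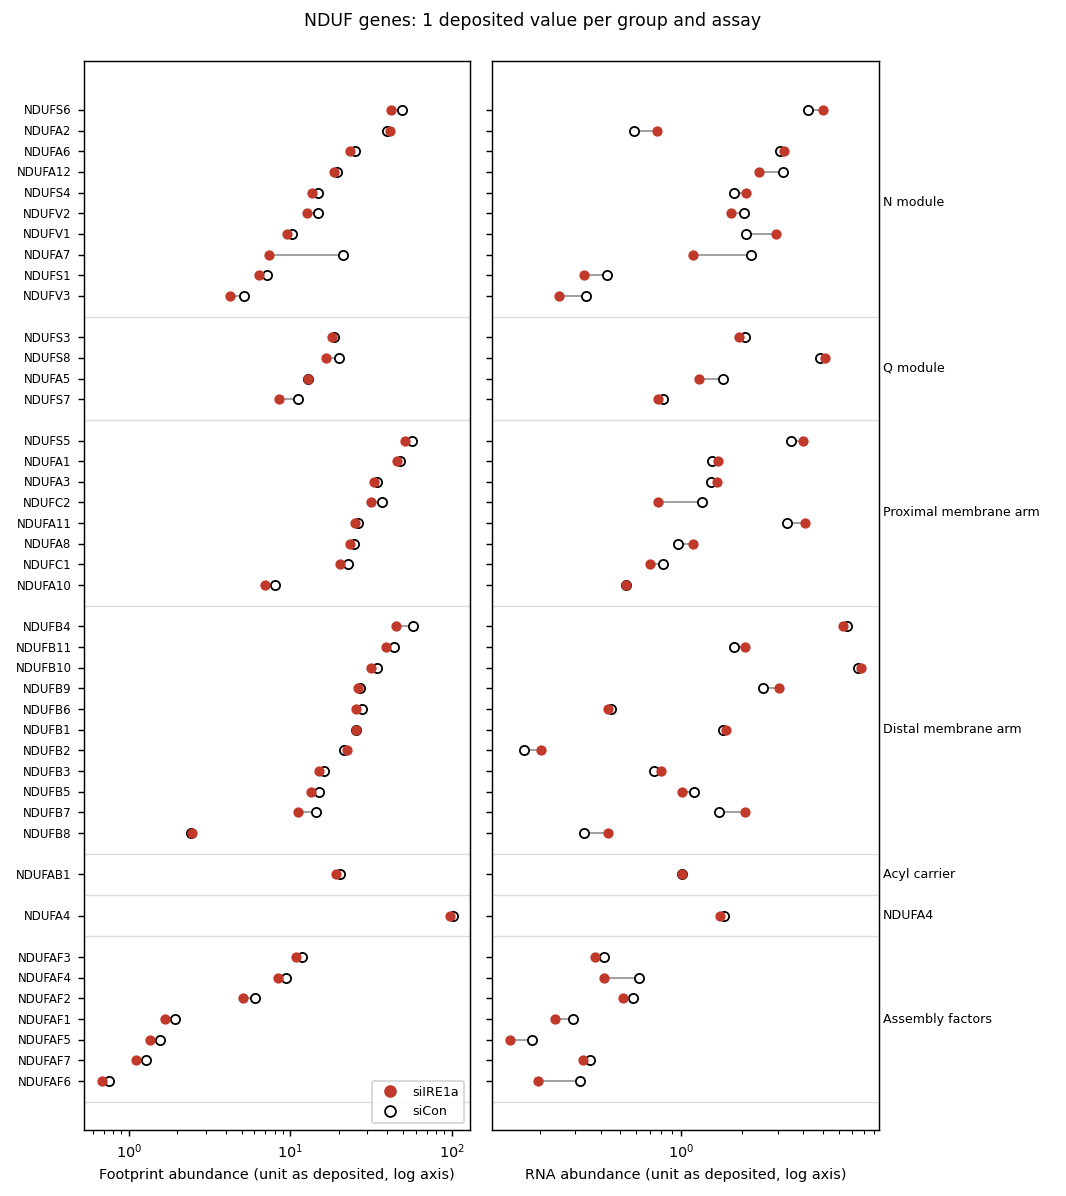
Footprint and RNA abundance of members on log axes in the deposited unit, siIRE1a as filled and siCon as open points joined by a line, grouped by part of the complex. The NDUFA7 footprint values, 7.40 in siIRE1a and 21.3 in siCon cells, are the widest-spaced pair of that panel.

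TE was the one quantity with a test, made by the authors over 8878 genes, 42 of them members. NDUFAF6 has no adjusted p. TE fell for 3 members (7.14%, against 4.62% of all tested genes) and rose for 1 (2.38%, against 5.90%) at an adjusted p under 0.05 in the authors' deposited table, so the shares are near those of all genes.

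The members whose TE fell were 2 N module subunits and 1 of the distal membrane arm. NDUFV1 TE was 3.24 in siIRE1a and 4.87 in siCon cells, and in the authors' deposited table it fell by 0.60 on the log2 scale (adjusted p = 0.0220, back-calculated SE 0.187). NDUFS6 TE was 8.37 in siIRE1a and 11.7 in siCon cells, and in the authors' deposited table it fell by 0.46 (adjusted p = 0.0132, SE 0.135). NDUFB7 TE was 5.37 in siIRE1a and 9.45 in siCon cells, and in the authors' deposited table it fell by 0.83 (adjusted p = 0.0311, SE 0.274). In all 3 genes RNA was higher and footprints were lower in siIRE1a cells as deposited, with the NDUFV1 footprint change at 0.02 under quantile normalization. As deposited RNA differed by more than footprints in each, but with the GC trend removed it differed by less in NDUFS6 (0.10 in RNA and -0.16 in footprints) and in NDUFB7 (0.20 and -0.31), as it did with a pseudocount of 1.

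TE of NDUFC2 was 41.4 in siIRE1a and 28.9 in siCon cells, and it rose by 0.54 on the log2 scale (SE 0.189) with an adjusted p of 0.0431 in the authors' deposited table. Both its RNA and its footprints were lower in siIRE1a cells, RNA by more. The core subunits NDUFV2, NDUFS1, NDUFS3, NDUFS7 and NDUFS8 did not pass the test, with log2 values in the authors' deposited table of 0.01 for NDUFV2, 0.25 for NDUFS1, 0.06 for NDUFS3, -0.30 for NDUFS7 and -0.35 for NDUFS8. Their adjusted p in the authors' deposited table ran from 0.244 for NDUFS8 to 0.974 for NDUFV2.

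NDUFAF genes with an adjusted p did not pass the test either, with log2 values from -0.04 for NDUFAF7 to 0.43 for NDUFAF4 (adjusted p = 0.106) in the authors' deposited table. Counted without regard to the test, the log2 value in the authors' deposited table was below 0 for 26 of 35 subunits and 2 of 7 assembly factors, against 54.2% of all genes. The medians were -0.19 for subunits, 0.10 for assembly factors and -0.04 for all genes, and with the GC trend removed they were -0.07, -0.02 and -0.01.

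**Figure D3:**
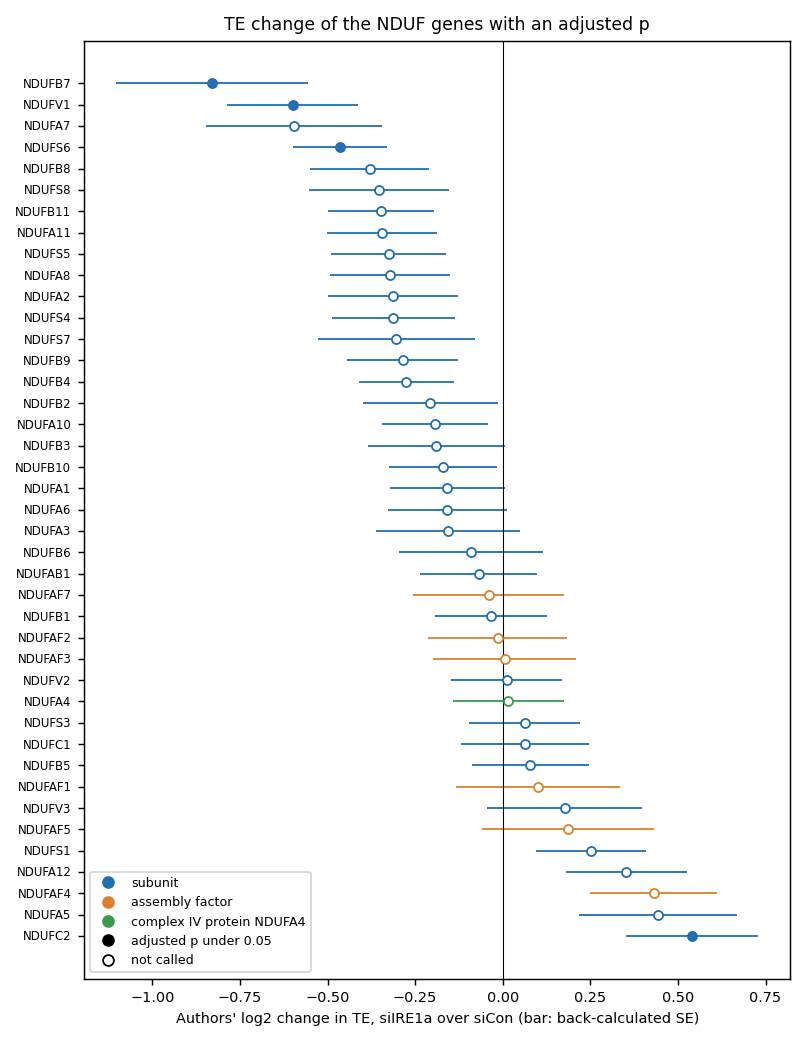
The log2 change in TE of the authors' deposited table, siIRE1a over siCon, for members with an adjusted p, filled where it is under 0.05, with back-calculated standard errors as bars (borrowed from genes of like abundance where p was 0.5 or more). NDUFB7 is lowest at -0.83 and NDUFC2 highest at 0.54.

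TE and RNA changes of the members moved with the base composition of the transcript, as those of all genes did. Across the 43 members, Spearman's rho with GC content was 0.50 for RNA change, -0.66 for TE change and -0.08 for footprint change, and across 10454 genes it was 0.63, -0.67 and -0.04. Genes share the same libraries and are not independent replicates. GC content was 61.1% for NDUFV1, 53.9% for NDUFS6, 65.0% for NDUFB7 and 45.4% for NDUFC2. With the GC trend over all genes removed from the changes of the authors' deposited table no member was called, where 0.475% of all genes fell and 0.826% rose. The adjusted p was then 0.643 for NDUFV1, 0.539 for NDUFS6, 0.488 for NDUFB7 and 0.236 for NDUFC2. NDUFA7 RNA lay off the trend, with a GC content of 55.7% and a log2 change of -1.14 once the trend was removed.

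**Figure D4:**
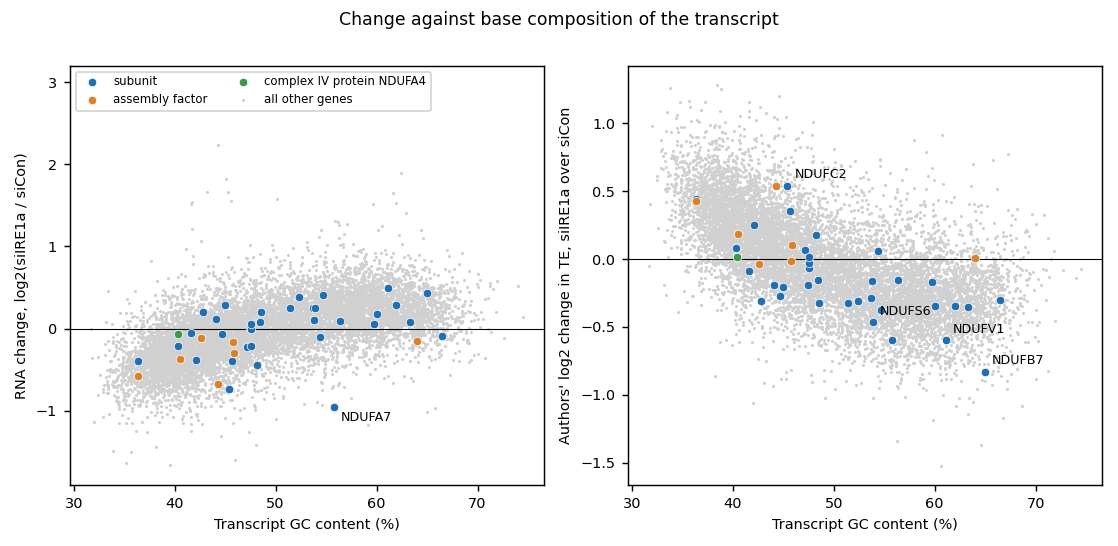
RNA change and the log2 change in TE of the authors' deposited table, siIRE1a over siCon, against GC content of the transcript in percent, for subunits, assembly factors, NDUFA4 and all other genes. Most members shown lie within the cloud of other genes, and NDUFA7 lies at its lower edge in RNA at -0.95.

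Levels differed widely between subunits. The unit of the deposited values is not stated. Footprint abundance was lower for genes with longer coding sequences, with a slope over all genes of -1.02 in siIRE1a and -1.05 in siCon cells on log2 scales, so the values do not grow with length as read counts would. Whether they are per length is not stated, and levels of different genes are described with that limit. Footprints of subunits ran from 2.47 (NDUFB8) to 51.3 (NDUFS5) in siIRE1a cells and from 2.43 (NDUFB8) to 57.5 (NDUFB4) in siCon cells. The 7 core subunits, which have longer coding sequences, had a median of 9.56 in siIRE1a and 11.1 in siCon cells, and the 28 accessory subunits had 23.4 in siIRE1a and 25.0 in siCon cells. Assembly factors had a median of 1.66 in siIRE1a and 1.93 in siCon cells, near the 1.74 in siIRE1a and 1.84 in siCon cells of all genes. NDUFA4 was first of the 43, and NDUFB8, NDUFAF1, NDUFAF5, NDUFAF7 and NDUFAF6 took the last 5 places in both groups. With 1 value per group no spread is at hand to separate neighbours in that order.

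RNA and footprint levels of subunits had a Spearman's rho of 0.46 in siIRE1a and 0.47 in siCon cells over 35 genes. Over 10454 genes it was 0.78 in siIRE1a and 0.80 in siCon cells. These rho values cover unlike ranges of levels. In siIRE1a cells footprints spanned 20.8-fold among subunits and 31503-fold among all genes, and RNA 38.1-fold and 195047-fold. Whether the range accounts for the lower rho of subunits was not tested. TE spanned 34.2-fold among subunits in siIRE1a and 31.5-fold in siCon cells. NDUFB2 had the highest TE of the members, 110 in siIRE1a and 129 in siCon cells, with RNA of 0.203 in siIRE1a and 0.167 in siCon cells. NDUFS8 had the lowest TE among subunits, 3.22 in siIRE1a and 4.09 in siCon cells. NDUFB10 had the highest RNA of the members, 7.75 in siIRE1a and 7.45 in siCon cells. For 18 members GENCODE lists pseudogenes named after them, 12 each for NDUFA5 and NDUFB4 and 2 for NDUFB8. Exons of 15 members overlap a gene on the opposite strand, among them NDUFB2. Exons of 8 members overlap a gene on the same strand, among them NDUFB2 (ADCK2) and NDUFV1 (AP003385.3). How reads with several matches and read strand were treated is not given in the sources used here, so the levels of such genes are uncertain.

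Genes outside the NDUF names were taken from lists of complex I assembly factors, complex I genes of mitochondrial DNA, import factors and regulators of respiratory gene expression. Of 12 assembly factors under other names, 10 (83.3%) had footprint changes below 0, against 67.9% of all genes, with a median of -0.18, against -0.08. In RNA they were divided, with 7 (58.3%) below 0, against 51.2% of all genes, and 5 above. Their median RNA change was -0.12, against -0.01 for all genes. Among those above 0 in RNA were TMEM261 at 0.48, C17orf89 at 0.29 and ACAD9 at 0.28. TE rose for TMEM126B, of the membrane-arm assembly complex, by 0.70 on the log2 scale (adjusted p = 0.0154) in the authors' deposited table, and of the 10 with an adjusted p none fell, where 5.90% of all tested genes rose and 4.62% fell. TMEM126B RNA was 0.620 in siIRE1a and 1.02 in siCon cells, and its footprints were 5.61 in siIRE1a and 5.71 in siCon cells. Its partners ACAD9 and ECSIT did not pass the test, at -0.48 (adjusted p = 0.102) and -0.33 (adjusted p = 0.496) in the authors' deposited table.

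The 7 complex I genes of mitochondrial DNA had footprints between 14.8 and 74.3 in siIRE1a cells and between 15.0 and 68.6 in siCon cells. Their RNA lay between 68.0 and 1160 in siIRE1a and between 98.6 and 1100 in siCon cells, far above that of the nuclear subunits. TE rose for MT-ND3, by 0.58 (adjusted p = 0.0115), and for MT-ND6, by 1.12 (adjusted p = 0.0317), in the authors' deposited table, and fell for none of the 7, where 5.90% of all tested genes rose and 4.62% fell. MT-ND3 RNA was 372 in siIRE1a and 504 in siCon cells, and its footprints were 74.3 in siIRE1a and 68.6 in siCon cells. For MT-ND6, RNA was 83.3 in siIRE1a and 187 in siCon cells, and footprints were 14.8 in siIRE1a and 15.0 in siCon cells. In both genes RNA differed by more than footprints. MT-ND6 is encoded on the opposite strand to the others.

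Import into the intermembrane space bears on the twin CX9C subunits NDUFS5, NDUFA8, NDUFB7 and NDUFB10, whose cysteines are oxidised there. CHCHD4, the oxidoreductase that does this, had footprints of 0.880 in siIRE1a and 2.14 in siCon cells (2.43-fold lower) and RNA of 0.195 in siIRE1a and 0.354 in siCon cells. GFER, which reoxidises CHCHD4, had footprints of 1.33 in siIRE1a and 2.29 in siCon cells (1.72-fold lower). Its RNA was 0.268 in siIRE1a and 0.318 in siCon cells. Footprints were at least 1.5-fold lower for 0.904% of all genes. RNA of CHCHD4 and GFER was low, below the medians of all genes of 0.396 in siIRE1a and 0.412 in siCon cells. The GFER coding sequence holds GACCTAA, which was chosen on these footprint values. How many genes hold it in the coding sequence was not counted, and its part in the GFER values was not tested. AIFM1, which binds CHCHD4, had footprints of 3.81 in siIRE1a and 4.24 in siCon cells. The 4 twin CX9C subunits had footprint changes between -0.38 (NDUFB7) and -0.08 (NDUFA8), where 67.9% of all genes were below 0. NDUFA8 turned to 0.004 with median centring. With quantile normalization NDUFA8 was 0.039 and NDUFB10 was 0.001. RNA changes of all 4 were above 0 as deposited, with a median of 0.23, where 48.8% of all genes were above 0. With the GC trend removed the NDUFB10 RNA change turned to -0.18 and the median of the 4 was 0.17. Neither CHCHD4 nor GFER has an adjusted p for TE.

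Of 9 measured regulators of respiratory gene expression, TE rose for TFAM, which packages and transcribes mitochondrial DNA, by 0.66 (adjusted p = 7.8e-04), and for GABPA, an ETS family transcription factor, by 0.51 (adjusted p = 0.0292), in the authors' deposited table, and none of the 5 with an adjusted p fell, against 5.90% and 4.62% of all tested genes that rose and fell. TFAM RNA was 0.876 in siIRE1a and 1.44 in siCon cells, and its footprints were 18.7 in siIRE1a and 19.7 in siCon cells. GABPA RNA was 0.458 in siIRE1a and 0.670 in siCon cells, and its footprints were 3.83 in siIRE1a and 3.98 in siCon cells. Their GC contents were 38.4% for TFAM and 36.4% for GABPA. With the GC trend removed, none of TMEM126B, MT-ND3, MT-ND6, TFAM and GABPA was called, with adjusted p of 0.650, 0.497, 0.237, 0.375 and 0.932.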

How the data were processed

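Footprint and RNA abundances were deposited by the authors as 1 value per group, assay and gene, with the unit and the way replicates were combined not given in the sources used here. The deposited TE columns equal the ratio of footprint to RNA abundance. For each gene the authors' comparison table gives the log2 change in TE with its adjusted p-value, and that file's name mentions DESeq2. Cluster counts and a mean base quality score per library come from a run summary, per the file headers. Builds hg19 and GRCh37 and Bowtie 1.1.2 are named in the submitters' processing notes.

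Of 10522 entries, 9 symbols with 2 entries each were left out. Changes are log2 of siIRE1a over siCon, with no pseudocount. Standard errors of TE changes were back-calculated, assuming a two-sided normal test and Benjamini-Hochberg adjustment over 8890 entries, and the step was tested on simulated data. GC content is that of a GENCODE release 29 transcript for 10454 genes (99.5%), of which 265 were found through an older symbol, and its trend is a polynomial of degree 3. The rule for named genes took the core subunits, the NDUFAF genes, genes called for TE and the 3 highest and 3 lowest changes per assay. The values of 1 core subunit are not reported here, and it is left out of the figures but kept in the counts and medians. NDUFA4, NDUFA5, NDUFA6, NDUFA8, NDUFA11, NDUFA12, NDUFAB1, NDUFB4, NDUFB10, NDUFB11, NDUFS4, NDUFS5 and NDUFV3 are named beside it and were chosen after their values were seen. The members and lists were chosen with earlier results of these data known. Python 3.11.15, numpy 2.4.6, pandas 2.3.3, scipy 1.17.1 and matplotlib 3.10.9 were used.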

Additional observations from a re-analysis of the deposited data

How the results depend on the processing

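No paired analysis was possible because the deposited columns hold 1 value per group with no replicate number, and for the same reason no library could be left out. Scaling had the strongest bearing on the footprint changes. The subunit median of -0.12 became -0.040 with median centring, -0.00471 with quantile normalization and -0.061 with the GC trend removed, and the assembly factor median of -0.20 became -0.12, -0.13 and -0.14 in the same order and -0.13 with a pseudocount of 1. The count of subunits below 0 was 31 and became 18 with quantile normalization, and the 4 subunits at least 20% lower became 1 under median centring, quantile normalization, GC removal and a fold of 1.5. For RNA, the subunit median of 0.06 became 0.12 with quantile normalization, and the assembly factor median of -0.30 became -0.056 with a pseudocount of 1 and -0.13 with the GC trend removed. The 6 subunits at least 20% lower in RNA became 2 with a pseudocount of 1, 3 with GC removal and 2 at a fold of 1.5. The 4 higher became 1, 2 and 0 in the same order and 2 among the 24 subunits with a mean of at least 1, of which 9 were below 0. The 3 assembly factors at least 20% lower became 0 with a pseudocount of 1 and 1 at a fold of 1.5, and none had a mean RNA of at least 1. TE calls became 0 in both directions at an adjusted p under 0.01 and after GC removal. NDUFA5 RNA turned from -0.40 to 0.047 with the GC trend removed. Leaving out NDUFA7, or the members with a 7-mer in the 3′ UTR, was chosen after seeing the data and changed the sign of no median. The cause of these differences was not tested. How many reads stand behind each value, and so its precision, is unknown.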
